A study of Mus musculus with 27 samples.

Results

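Transforming growth factor-beta (TGF-beta) signalling was followed through 9 genes of the 20156 in the expression tables, taken by gene symbol, with earlier results of these data known when they were chosen. They are the ligand genes Tgfb1, Tgfb2, Tgfb3 and Inhba, the latency gene Ltbp1, the receptor genes Tgfbr1, Tgfbr2 and Tgfbr3, and the signal transducer gene Smad3. Expression was read in 6 RNA-seq libraries, and histone H3, H3K4me3, H3K27me3 and H3K9me3 in 21 MNase ChIP-seq libraries of the same 3 mouse cell types.

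TGF-beta ligands are secreted in a latent complex, in which a latent TGF-beta binding protein such as LTBP1 ties the ligand to the extracellular matrix until it is released. The free ligand binds the type II receptor, encoded by Tgfbr2, which phosphorylates the type I receptor, encoded by Tgfbr1, and this receptor phosphorylates SMAD2 and SMAD3, which enter the nucleus with SMAD4. Activin A, a dimer of the product of Inhba, uses other receptors but the same SMAD proteins. In fibroblasts the pathway is known for driving matrix and contractile genes, and in reprogramming it is known as a barrier, since it favours the mesenchymal state.

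The starting cells were mouse embryonic fibroblasts (MEFs) of day 13.5 embryos, hemizygous for an Oct4-GFP transgene and carrying a Rosa26 allele, from fathers of the labelled CBA/CaJ and C57BL/6J background and mothers of another strain. From such MEFs the retroviral factors Oct4, Sox2, Klf4 and c-Myc gave pre-iPSCs, which are partially reprogrammed cells, and iPSCs, the induced pluripotent stem cells, so that both carry the same alleles as MEFs plus the proviruses. Each cell type had 2 libraries of RNA, H3, H3K4me3 and H3K27me3 and 1 library of H3K9me3, and the sources used here do not tie a library to one of the clones. MEFs were kept in serum without LIF, while pre-iPSCs and iPSCs grew for 6 passages in serum and LIF on a feeder layer of inactivated MEFs.

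In each pair of values below, replicate 1 comes before replicate 2. Expression is in FPKM, which corrects for transcript length, so levels of different genes can be set side by side. Calls of H3 nucleosomes held 67362868 to 108211816 reads per library and those of the marks 12007350 to 15222040, and the depth of the RNA-seq libraries cannot be read from FPKM. MEFs were digested with another amount of MNase and for another time than pre-iPSCs and iPSCs, so that in the chromatin data the cell type and the digestion cannot be told apart between MEFs and the other cells. The 10 fibroblast markers summed to 4220 and 4245 FPKM (MEFs), 292.0 and 90.8 FPKM (pre-iPSCs) and 200.9 and 217.5 FPKM (iPSCs), with at least 8 of the 10 markers at 1 FPKM or more in every library. Fibroblast marker RNA was thus detected in pre-iPSCs and iPSCs, which grew on MEF feeders, and the part of feeder cells in the levels given below was not tested. Both replicates had 0 (MEFs), 5 (pre-iPSCs) and 10 (iPSCs) of 10 pluripotency markers at 1 FPKM or more. Nanog and Zfp42, which mark complete reprogramming, were at 0.519 FPKM or less in pre-iPSCs and at 49.5 FPKM or more in iPSCs. Not all markers rose in this step. Sox2, a delivered factor, was at 272 and 171 FPKM in pre-iPSCs and 65.7 and 116 in iPSCs. Pou5f1, the gene of the delivered factor Oct4, was at 378 and 3184 FPKM in pre-iPSCs and 586 and 397 in iPSCs. Summed FPKM was at most 166.5 for 5 epithelial markers (highest in iPSCs), 16.4 for 4 endothelial markers (highest in iPSCs) and 11.3 for 4 blood and macrophage markers (highest in pre-iPSCs). In such bulk samples, fewer cells of a type and less RNA per cell cannot be told apart.

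The promoters of 3 ligand genes are shown because H3K27me3 was called higher there in both reprogrammed cell types. The 250 bases before the start site are given 5′ to 3′ on the strand of the gene (mm9, RefSeq gene starts of the expression tables), with CG dinucleotides in capitals.
Tgfb1: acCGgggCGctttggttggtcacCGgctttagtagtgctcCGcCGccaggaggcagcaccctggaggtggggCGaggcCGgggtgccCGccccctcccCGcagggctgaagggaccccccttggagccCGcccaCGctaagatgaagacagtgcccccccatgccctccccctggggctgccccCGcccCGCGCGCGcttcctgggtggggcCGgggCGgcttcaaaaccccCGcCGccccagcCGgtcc
Tgfb3: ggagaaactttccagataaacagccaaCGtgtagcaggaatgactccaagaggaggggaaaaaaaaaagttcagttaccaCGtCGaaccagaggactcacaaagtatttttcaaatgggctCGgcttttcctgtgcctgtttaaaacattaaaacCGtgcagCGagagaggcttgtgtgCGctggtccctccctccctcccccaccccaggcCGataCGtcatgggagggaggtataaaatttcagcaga
Inhba: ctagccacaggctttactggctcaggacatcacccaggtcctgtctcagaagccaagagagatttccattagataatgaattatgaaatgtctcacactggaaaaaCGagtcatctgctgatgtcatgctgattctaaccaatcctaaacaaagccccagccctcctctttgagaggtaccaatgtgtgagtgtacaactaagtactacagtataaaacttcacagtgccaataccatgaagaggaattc
The Tgfb1 promoter lies on chr7:26471771-26472020 on the plus strand, that of Tgfb3 on chr12:87419992-87420241 on the minus strand and that of Inhba on chr13:16106058-16106307 on the plus strand. The Tgfb1 promoter holds 21 CG dinucleotides and that of Tgfb3 holds 9, while that of Inhba holds 1. Of 20153 promoters of this length, 93.6% hold at least 1 CG and the median is 11, and 23.7% hold as many as Tgfb1 or more. The other members ranged from 9 (Tgfb2) to 33 (Tgfbr1), so Inhba was the member with the fewest.

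All 4 ligand genes were called lower between MEFs and pre-iPSCs, Ltbp1 and Tgfbr2 between pre-iPSCs and iPSCs, and Smad3 over both steps together. From MEFs to pre-iPSCs 4 of the 9 genes were called lower (Tgfb1, Tgfb2, Tgfb3 and Inhba), beside 9.0% of the 12401 genes tested, and 0 higher, beside 7.39%. From pre-iPSCs to iPSCs 2 were called lower (Ltbp1 and Tgfbr2), beside 4.71% of genes, and 0 higher, beside 3.91%. From MEFs to iPSCs 7 were called lower, all but Tgfbr1 and Tgfbr3, beside 15.5% of genes, and 0 higher, beside 10.3%. A call here is an adjusted p below 0.05 by limma on log2(FPKM + 1) with a change of at least 2-fold, and a log2 difference on this scale understates the change of low genes. The median log2 difference of the 9 genes was −1.50, −0.83 and −2.69 in these 3 comparisons, and that of all genes tested was −0.04, −0.09 and −0.14. The comparisons share libraries and are not independent of each other.

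**Figure D1:**
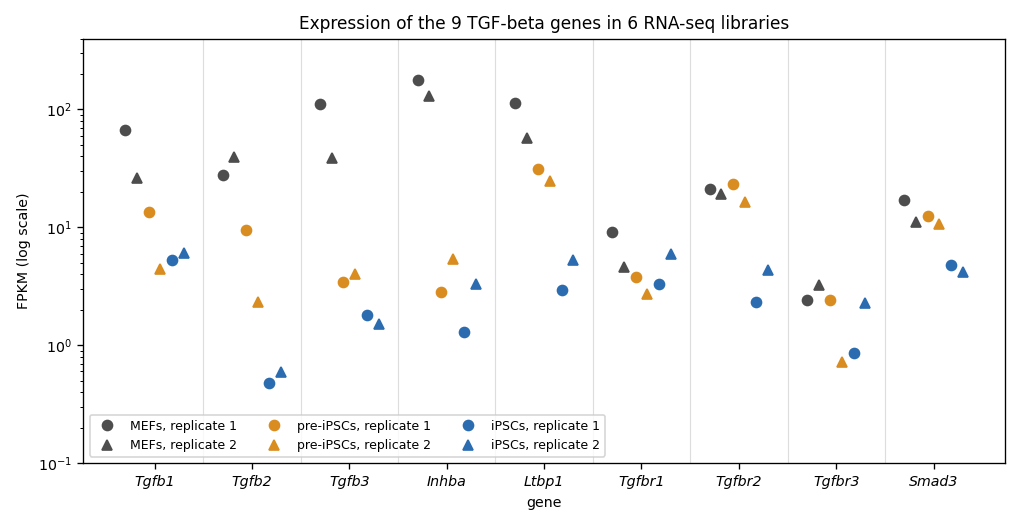
FPKM (log axis) of the 9 genes in the 6 RNA-seq libraries, 1 point per library, with colours for cell types and shapes for replicates. The 4 ligand genes on the left drop between MEFs (grey) and pre-iPSCs (orange), Ltbp1 and Tgfbr2 are lowest in iPSCs (blue), and at Tgfbr1 and Tgfbr3 the iPSC points overlap those of another cell type.

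Inhba, which encodes the activin A subunit, had the highest level of the 9 genes in both MEF libraries. It also had the largest change of the 9 in both comparisons with MEFs. It was at 179 and 131 FPKM in MEFs, while pre-iPSCs had 2.83 and 5.39 and iPSCs had 1.30 and 3.31. MEFs lay far above both other cell types, and pre-iPSCs and iPSCs overlapped. The mean fell 37.8-fold to pre-iPSCs (log2 difference −4.96 ± 0.43 SE, limma adjusted p = 0.00111) and was 67.3-fold lower in iPSCs than in MEFs (−5.61 ± 0.43, limma adjusted p = 0.000732). Both calls were made under every one of 12 alternatives.

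Tgfb3, the ligand of mesenchyme and palate development, was at 110.9 and 38.9 FPKM in MEFs, and at the later stages 3.43 and 4.04 (pre-iPSCs) and 1.82 and 1.52 (iPSCs). No libraries of different cell types overlapped. The fall to pre-iPSCs was 20.1-fold of the mean (−3.82 ± 0.48, limma adjusted p = 0.00321), and this call too was made under all 12 alternatives. The step from pre-iPSCs to iPSCs, 2.24-fold of the mean, was not called (−0.83 ± 0.48, limma adjusted p = 0.386).

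Tgfb1, the main circulating isoform, was at 66.4 and 26.4 FPKM in MEFs, then 13.6 and 4.42 in pre-iPSCs, with 5.29 and 6.09 in iPSCs. Replicates of MEFs and of pre-iPSCs differed by more than 2-fold, and pre-iPSCs spanned the iPSC values. The log2 difference was −2.27 ± 0.47 in pre-iPSCs against MEFs (limma adjusted p = 0.0176) and −2.69 ± 0.47 in iPSCs against MEFs (limma adjusted p = 0.00729). Without replicate 2 of pre-iPSCs the first became −1.84 and was not called, and without replicate 1 of iPSCs the second became −1.92 and was not called.

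Tgfb2, the ligand that needs betaglycan for efficient receptor binding, was at 27.9 and 39.4 FPKM in MEFs, while pre-iPSCs had 9.44 and 2.34 and iPSCs had 0.480 and 0.599. The cell types did not overlap. The fall to pre-iPSCs was 5.71-fold of the mean (−2.53 ± 0.55, limma adjusted p = 0.0211). The mean of iPSCs was 10.9-fold below that of pre-iPSCs, which missed the call (−1.94 ± 0.55, limma adjusted p = 0.0779). Without replicate 2 of pre-iPSCs the first log2 difference was −1.56 and was not called, and without either iPSC library it stayed at −2.53 and was also not called (limma adjusted p = 0.0727 and 0.0735). The fall over both steps was 62.4-fold (−4.47 ± 0.55, limma adjusted p = 0.00215), and without replicate 1 of iPSCs it was −4.13 and not called. Without the filter on low values neither Tgfb1 nor Tgfb2 was called in pre-iPSCs against MEFs (limma adjusted p = 0.0580 and 0.0767). Tgfb2 was called lower from pre-iPSCs to iPSCs under 5 alternatives, among them a pseudocount of 0.1 (−2.92) and quantile normalization (−2.05).

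The summed FPKM of the 4 ligand genes was 384.3 and 236.0 in MEFs, and at the later stages 29.3 and 16.2 (pre-iPSCs) and 8.89 and 11.5 (iPSCs). That of the 3 receptor genes was 32.7 and 27.1 in MEFs, then 29.7 and 19.9 in pre-iPSCs, with 6.50 and 12.6 in iPSCs. The summed FPKM of these ligand genes was thus above that of these receptor genes in MEFs and not in pre-iPSCs. In iPSCs it was above in replicate 1 and not in replicate 2. The ligand sum includes Inhba, whose product uses receptors that are not in the receptor sum.

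Ltbp1, which holds latent TGF-beta in the matrix, was at 114 and 57.1 FPKM in MEFs, while pre-iPSCs had 31.3 and 24.9 and iPSCs had 2.95 and 5.29. It had the highest level of the 9 genes in both pre-iPSC libraries. The first step was 3.04-fold of the mean and was not called (−1.50 ± 0.45, limma adjusted p = 0.0638), and the step to iPSCs was 6.83-fold and was called (−2.54 ± 0.45, limma adjusted p = 0.0163). Without replicate 2 of MEFs the first step was called as well (−2.07). The second was lost without replicate 1 of pre-iPSCs (−2.46) and without either iPSC library (−1.88 and −3.20).

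Tgfbr2, the type II receptor gene, was at 21.2 and 19.3 FPKM in MEFs, and at the later stages 23.5 and 16.4 (pre-iPSCs) and 2.34 and 4.38 (iPSCs). The pre-iPSC libraries lay on either side of the MEF libraries (log2 difference −0.04, 95% interval −0.99 to 0.92), and both iPSC libraries lay below all others. The fall from pre-iPSCs to iPSCs was 5.94-fold of the mean (−2.29 ± 0.41, limma adjusted p = 0.0165). This call was lost without replicate 1 of pre-iPSCs (−1.90) and without either iPSC library (−1.79 and −2.78). In iPSCs against MEFs the log2 difference was −2.32 ± 0.41 (limma adjusted p = 0.00726), and −1.82 and not called without replicate 1 of iPSCs.

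Tgfbr1, the type I receptor gene, was at 9.17 and 4.604 FPKM in MEFs, then 3.76 and 2.74 in pre-iPSCs, with 3.30 and 5.92 in iPSCs. No comparison was called, and MEFs and iPSCs overlapped. The 95% interval of the log2 difference in iPSCs against MEFs, −1.55 to 0.61, leaves room for a change of more than 2-fold. Tgfbr3 encodes betaglycan, the co-receptor that presents TGF-beta2, and was at 2.41 and 3.24 FPKM in MEFs, while pre-iPSCs had 2.43 and 0.722 and iPSCs had 0.854 and 2.27. It had the lowest level of the 9 genes in MEFs and pre-iPSCs, and its log2 difference in iPSCs against MEFs was −0.63 (95% interval −1.74 to 0.49, not called).

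Smad3, which carries the signal to the nucleus, was at 17.1 and 11.03 FPKM in MEFs, and at the later stages 12.6 and 10.7 (pre-iPSCs) and 4.83 and 4.18 (iPSCs). MEFs and pre-iPSCs overlapped and iPSCs lay below both. The log2 difference was −1.43 ± 0.36 in iPSCs against MEFs (limma adjusted p = 0.0254) and −1.20 ± 0.36 in iPSCs against pre-iPSCs (limma adjusted p = 0.0906), the latter called when either MEF library was left out. The first call was lost when any library but replicate 2 of MEFs was left out (−1.23 to −1.54), and Smad3 was the called member with the smallest change.

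The order of the 9 levels changed with the cell type. In MEFs Inhba, at 155.2 ± 33.8 FPKM (SD, n = 2), and Ltbp1, at 85.4 ± 40.0, led, and the neighbours Ltbp1, Tgfb3 (74.9 ± 50.9) and Tgfb1 (46.4 ± 28.3) did not differ beyond their spread. In pre-iPSCs Ltbp1 (28.1 ± 4.50) and Tgfbr2 (20.0 ± 5.01) led, and Inhba was at 4.11 ± 1.81. In iPSCs Tgfb1 (5.69 ± 0.563), Tgfbr1 (4.61 ± 1.85), Smad3 (4.50 ± 0.459) and Ltbp1 (4.12 ± 1.66) led, with no neighbours among them differing beyond their spread, and Tgfb2 (0.539 ± 0.0837) was lowest.

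The genes most like a member were those with the highest Pearson correlation of log2(FPKM + 1) over the 6 libraries, given as a description, since the libraries share cell types and tables. Inhba was nearest to Tpm1, a tropomyosin gene of stress fibres, and to Ankrd1, a YAP target gene (both r = 0.999). Ankrd1 was at 217 and 117 FPKM in MEFs, then 1.30 and 2.57 in pre-iPSCs, with 0.276 and 1.88 in iPSCs. Tgfb3 was nearest to Zyx, which encodes the focal adhesion protein zyxin (r = 0.996), and to Pdxdc1 (r = 0.996). Tgfb2 was nearest to Entpd7 (r = 0.997) and Arhgdib (r = 0.994), and Tgfb1 to Chst2 (r = 0.998) and Slc38a10 (r = 0.996). Ltbp1 was nearest to Wdr5b (r = 0.999) and Samd4 (r = 0.998), and Tgfbr2 to Syne1 (r = 0.999), which encodes the nuclear envelope protein nesprin-1, and Dcaf10 (r = 0.990). Smad3 was nearest to Vps8 (r = 0.996) and 1300018J18Rik (r = 0.995), and Tgfbr3 to Ino80c (r = 0.979) and Prickle1 (r = 0.977).

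H3K4me3, the mark of active and poised promoters, was called lower at Inhba and at no other of the 9 promoters. Reads were counted within 1000 bp of the start site, and RPKM values are scaled to the unique reads of each library. At Inhba the reads were 71 and 29 in MEFs, while pre-iPSCs had 16 and 10 and iPSCs had 13 and 11, which is 2.40 and 0.923 RPKM in MEFs, and at the later stages 0.490 and 0.325 (pre-iPSCs) and 0.403 and 0.362 (iPSCs). Both MEF libraries lay above all 4 others, with a wide gap between them. The log2 difference was −1.59 ± 0.35 in pre-iPSCs against MEFs (edgeR adjusted p = 0.00503) and −1.73 ± 0.36 in iPSCs against MEFs (edgeR adjusted p = 0.00110). Inhba was the only member called, 1 of 9 beside 0.759% and 3.97% of 17644 promoters called lower, and 0 of 9 were called in iPSCs against pre-iPSCs beside 0.0283% of promoters. Over 14 alternatives the adjusted p of the Inhba difference ran from 7.96e-05 to 0.346 in pre-iPSCs and from 2.00e-05 to 0.130 in iPSCs. DESeq2 called neither, the difference in pre-iPSCs was not called within 500 bp or without replicate 2 of pre-iPSCs (−1.40), and without replicate 1 of MEFs the differences were −0.94 and −1.08 and not called.

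The balance of higher and lower calls for this mark moved with the scaling. With the normalization of edgeR (TMM), 80.6% of the promoters called in pre-iPSCs against MEFs were higher, and with library sizes from unique reads 17.0% were, while the median log2 difference of all promoters moved from −0.01 to −0.40. In iPSCs against MEFs the share moved from 71.4% to 26.2% and the median from −0.03 to −0.38. The loss at Inhba had the same sign and was called with both scalings, at −2.00 and −2.10 with unique reads. Both values include the shift of the median, so they are no separate check of the scaling.

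The other 8 promoters had no call in this fit, also where the mRNA fell. Tgfb1, whose mRNA fell 8.15-fold of the mean from MEFs to iPSCs, had 1.96 and 1.46 RPKM of H3K4me3 in MEFs, then 1.20 and 0.877 in pre-iPSCs, with 1.74 and 1.41 in iPSCs. In iPSCs these levels were above those of 95.05% and 93.4% of all promoters, against 77.7% and 75.5% in MEFs. Tgfb2, at 0.539 FPKM in iPSCs, had 1.25 and 1.31 RPKM in MEFs, while pre-iPSCs had 0.828 and 1.04 and iPSCs had 1.12 and 1.28. At Tgfb3 the RPKM values were 2.00 and 1.46 in MEFs and 1.09 and 0.987 in iPSCs. Both MEF libraries also lay above both iPSC libraries in RPKM at Tgfbr1, Tgfbr2 and Smad3. The median of all promoters had the same order, at 1.22 and 0.955 RPKM in MEFs and 0.8999 and 0.822 RPKM in iPSCs. This order alone therefore does not set these genes apart. With TMM, the log2 differences in iPSCs against MEFs were −0.44 (Tgfbr1), −0.33 (Tgfbr2) and −0.13 (Smad3). At Tgfb1, Tgfb2, Ltbp1 and Tgfbr3 the libraries of MEFs and iPSCs overlapped. The differences of these 8 promoters from MEFs lay between −0.62 and 0.36, and the smallest adjusted p was 0.201 in pre-iPSCs, at Ltbp1 (edgeR), and 0.242 in iPSCs, at Tgfbr1 (edgeR). With reads within 2000 bp, Tgfb3 was called lower as well (−0.95 in pre-iPSCs and −0.71 in iPSCs), beside 2.57% and 7.88% of promoters, where MEFs had more H3K4me3 downstream of the start. With unique reads as library size, Ltbp1 was called lower in pre-iPSCs against MEFs (−1.01).

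H3K27me3, the mark of Polycomb repression, was called higher than in MEFs at 3 of the 4 ligand gene promoters, on low counts. At Tgfb1 the reads were 1 and 5 in MEFs, and at the later stages 17 and 22 (pre-iPSCs) and 19 and 22 (iPSCs). At Tgfb3 they were 1 and 2 in MEFs, then 10 and 9 in pre-iPSCs, with 18 and 20 in iPSCs. At Inhba they were 1 and 7 in MEFs, while pre-iPSCs had 12 and 19 and iPSCs had 16 and 28. At each of the 3 promoters both MEF libraries lay below all 4 others, at 0.0303 to 0.185 RPKM against 0.275 to 0.835 RPKM, on counts of at most 28 reads.

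In pre-iPSCs against MEFs the log2 difference of H3K27me3 was 2.69 ± 0.53 at Tgfb1 (edgeR adjusted p = 0.000401), 2.60 ± 0.72 at Tgfb3 (edgeR adjusted p = 0.0127) and 1.96 ± 0.54 at Inhba (edgeR adjusted p = 0.0128). In iPSCs against MEFs it was 2.71 ± 0.53 at Tgfb1 (edgeR adjusted p = 0.000233), 3.54 ± 0.61 at Tgfb3 (edgeR adjusted p = 4.97e-05) and 2.41 ± 0.50 at Inhba (edgeR adjusted p = 0.000559). These 3 of 9 members, of which 5 were tested, stand beside 5.01% and 7.28% of the 10185 tested promoters called higher. The 3 had at most 7 reads in MEFs and passed the filter on low counts through the other cells. Their number and their adjusted p are therefore given as a description. Only 5 members passed the filter on low counts, and Ltbp1, Tgfbr1, Tgfbr2 and Smad3 were not tested. No member was called in iPSCs against pre-iPSCs, beside 0.805% of promoters, and Tgfb3 had the smallest p there (0.94 ± 0.41, edgeR adjusted p = 0.328).

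These H3K27me3 calls depended on the tool, while the differences were of like size, at 2.75 (Tgfb1), 2.69 (Tgfb3) and 2.02 (Inhba) in pre-iPSCs and 2.78, 3.65 and 2.48 in iPSCs with DESeq2. DESeq2 called 44 promoters in pre-iPSCs against MEFs where edgeR called 842, and no member (adjusted p = 0.111 at Tgfb1 and 0.339 at Tgfb3 and Inhba). It called 27 in iPSCs against MEFs where edgeR called 1163, and no member (adjusted p = 0.0768 at Tgfb1 and 0.112 at Inhba, not given for Tgfb3). Over all alternatives the adjusted p in pre-iPSCs against MEFs ran from 3.42e-06 to 0.111 at Tgfb1, from 0.000156 to 0.339 at Tgfb3 and from 0.000139 to 0.339 at Inhba. In iPSCs against MEFs it ran from 3.96e-07 to 0.0768 at Tgfb1, from 4.54e-07 to 0.00266 at Tgfb3 and from 8.64e-06 to 0.112 at Inhba. The range at Tgfb3 there lacks DESeq2, which gave no adjusted p for it and the highest one at Tgfb1 and Inhba. Leaving out a MEF or pre-iPSC library ended the call in pre-iPSCs at Tgfb3 in each of 4 cases (2.33 to 2.96) and at Inhba without replicate 1 of MEFs (1.29) or replicate 2 of pre-iPSCs (1.53). With calls of at least 2 reads, where MEFs had 0 reads at Tgfb3, its call in pre-iPSCs was lost as well (edgeR adjusted p = 0.0658). The calls at Tgfb1 and those in iPSCs held without any one library.

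**Figure D2:**
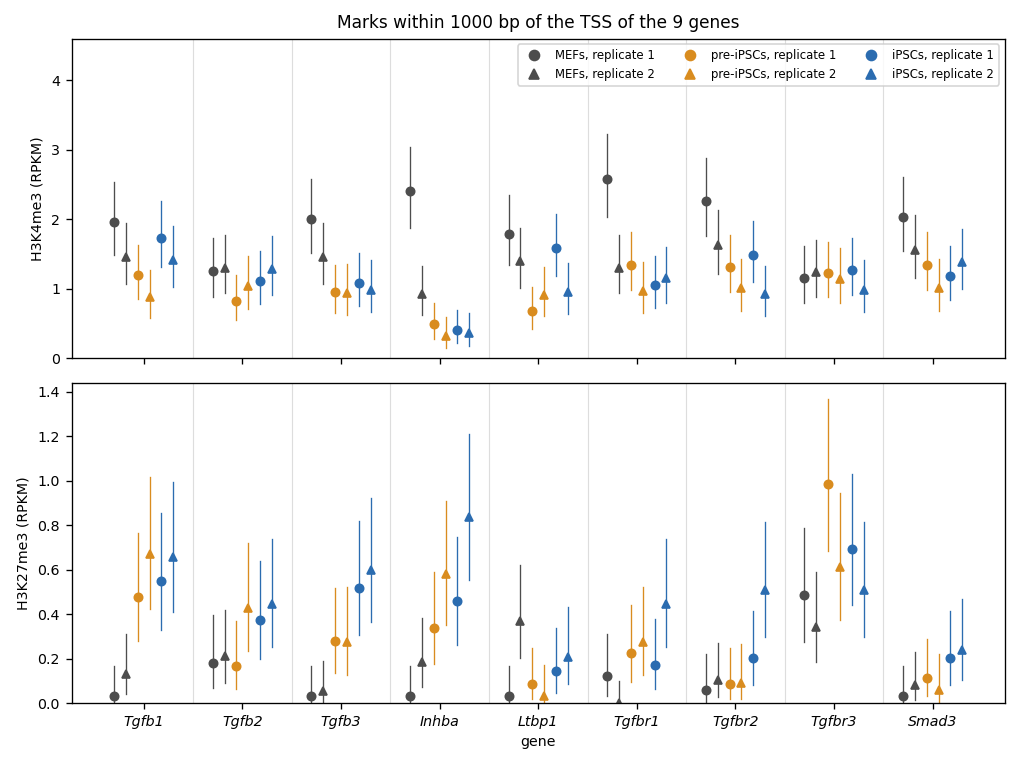
H3K4me3 and H3K27me3 (RPKM, within 1000 bp of the start site) at the 9 promoters, 1 point per library with its exact 95% Poisson interval, which covers counting error only. In the lower panel the grey MEF points of Tgfb1, Tgfb3 and Inhba lie below the orange and blue points, and in the upper panel Inhba alone has all 4 reprogrammed libraries below 0.5 RPKM.

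Among the members without a call, Tgfbr3 had the highest mean of H3K27me3 in MEFs, with 16 and 13 reads, beside 35 and 20 for pre-iPSCs and 24 and 17 for iPSCs (0.95 ± 0.36 for pre-iPSCs against MEFs, edgeR adjusted p = 0.0911). Tgfb2 had 6 and 8 reads in MEFs, then 6 and 14 in pre-iPSCs, with 13 and 15 in iPSCs (0.97 ± 0.48 in iPSCs against MEFs, edgeR adjusted p = 0.181). Tgfbr2 had 2 and 4 reads in MEFs, then 3 and 3 in pre-iPSCs, with 7 and 17 in iPSCs, and Smad3 had 1 and 3, 4 and 2, and 7 and 8. For both genes the mRNA and the H3K27me3 reads of pre-iPSCs overlapped those of MEFs, on at most 4 reads. At Tgfb2 and Ltbp1 the reads overlapped as well, while the mRNA levels did not. At Tgfbr3 the mRNA levels overlapped and the reads did not. Tgfbr1 had 4 and 0 reads in MEFs, while pre-iPSCs had 8 and 9 and iPSCs had 6 and 15. Ltbp1 had 1 and 14 reads in MEFs, and at the later stages 3 and 1 (pre-iPSCs) and 5 and 7 (iPSCs).

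With reads within 2000 bp all 9 members and 18247 promoters could be tested for H3K27me3. In iPSCs against MEFs 7 members were then called higher, beside 8.77% of promoters, namely Tgfb1 (2.70), Tgfb3 (2.67), Inhba (2.18), Tgfb2 (1.31), Tgfbr1 (1.17), Smad3 (1.06) and Tgfbr2 (1.02). In iPSCs against pre-iPSCs Tgfbr2 was called higher (1.37), beside 0.954% of promoters. In pre-iPSCs against MEFs Tgfb1 (2.51), Tgfb3 (2.13) and Inhba (1.96) were called higher, beside 5.01% of promoters, and Ltbp1 lower (−1.28), beside 4.59%. In MEFs Tgfb1 had 5 and 8 reads in this window, Tgfb3 had 6 and 7 and Inhba had 4 and 16. These genes again passed the filter through the other cells. The numbers of members called within 2000 bp are therefore also given as a description. Ltbp1 had 15 and 42 reads in MEFs and 16 and 8 in pre-iPSCs within 2000 bp, so replicate 1 was alike in both and the difference lay in replicate 2. Within 500 bp only Tgfb2 and Tgfbr3 passed the filter, and neither was called.

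**Figure D3:**
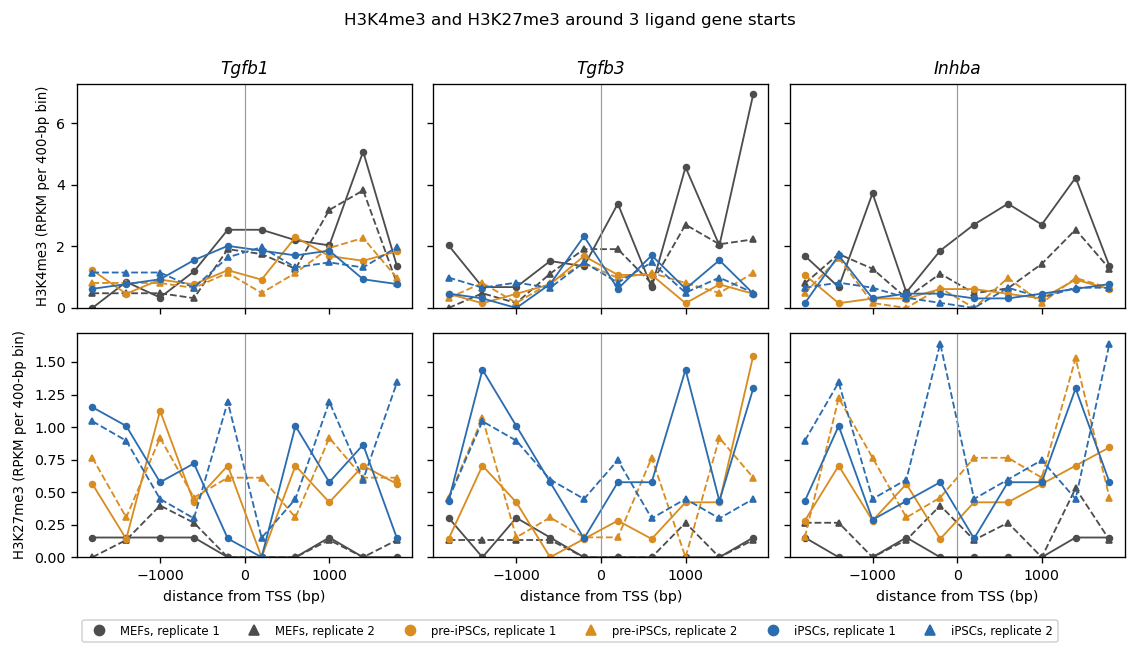
H3K4me3 (upper row) and H3K27me3 (lower row) in RPKM per 400-bp bin against the distance from the start site in bp, for Tgfb1, Tgfb3 and Inhba, 1 line per library (solid for replicate 1, dashed for replicate 2). MEF lines (grey) run highest for H3K4me3 in most bins downstream of the Inhba and Tgfb3 starts and lowest for H3K27me3 over most of the 4 kb, without a peak at the start.

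With a level above 1 RPKM counted as marked, H3K4me3 marked 9 and 8 members in the MEF libraries, 5 and 4 for pre-iPSCs, and 8 and 4 for iPSCs. Of all promoters, 56.4% and 47.3% were marked in MEFs, then 40.5% and 35.9% in pre-iPSCs, with 41.1% and 34.4% in iPSCs, so that the share of the members lay near that of all promoters in pre-iPSCs and in replicate 2 of iPSCs. These shares use RPKM scaled to unique reads, the scaling that lowers the median promoter of both other cell types against MEFs as given above, and above 2 RPKM 4 members were marked in replicate 1 of MEFs and 0 in the other 5 libraries. H3K27me3 marked 0 members in all 6 libraries, beside 0.938% to 2.61% of promoters, and within 500 bp it marked Inhba in replicate 2 of iPSCs (1.01 RPKM). The highest H3K27me3 value, 0.984 RPKM at Tgfbr3 in replicate 1 of pre-iPSCs, was above that of 98.3% of promoters. The value at Inhba in replicate 2 of iPSCs, 0.835 RPKM, was above that of 96.5% of promoters.

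H3K9me3, a mark of heterochromatin, had 1 library per cell type, so it was compared without a test. At Inhba it had 2 reads in MEFs (0.0656 RPKM, 95% exact Poisson interval 0.00794 to 0.237), 14 in pre-iPSCs (0.437 RPKM, 0.239 to 0.733) and 14 in iPSCs (0.463 RPKM, 0.253 to 0.777). The interval of MEFs did not meet those of the other cells, but with 1 library such intervals cover counting error only. At Tgfb2 it had 3 reads in MEFs (0.0984 RPKM, 0.0203 to 0.288), 6 in pre-iPSCs (0.187 RPKM, 0.0687 to 0.407) and 20 in iPSCs (0.662 RPKM, 0.404 to 1.02), where the level was above that of 96.1% of promoters. Tgfb1 had 4, 8 and 12 reads and Tgfb3 had 3, 9 and 13 reads in MEFs, pre-iPSCs and iPSCs, with intervals that met between the cell types, while at Tgfb2 those of MEFs and iPSCs did not meet. At the other 5 members it had 1 to 11 reads, and at Tgfbr1 the reads were 7, 6 and 2. The median promoter had 6, 7 and 8 reads in these libraries.

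Nucleosome occupancy read with the H3 antibody gave no call. Of 19576 promoters 0% was called in any comparison by edgeR, and 0 by DESeq2. At an unadjusted p below 0.05 edgeR had 377 and 298 promoters in the comparisons of pre-iPSCs and iPSCs with MEFs and 105 between pre-iPSCs and iPSCs, with 0 members in each, and DESeq2 had 195, 134 and 40, also with 0 members. All these counts are below the share of 0.05 of 19576 promoters that would pass without any difference. The lack of calls thus does not show that occupancy was alike between the cell types. Replicate 1 of pre-iPSCs and of iPSCs stood apart from the other 4 H3 libraries. In these 2 libraries promoter reads rose with GC content (Spearman rho over promoters 0.618 and 0.575), and in the other 4 they fell (−0.337 to −0.179).

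Tgfb1, with 63.9% GC in its 2-kb window, had 28 and 40 H3 reads in MEFs, then 316 and 23 in pre-iPSCs, with 194 and 37 in iPSCs. Inhba, with 38.8% GC, had 50 and 56 reads in MEFs, while pre-iPSCs had 10 and 56 and iPSCs had 46 and 67. The pre-iPSC replicates thus differed more from each other than the MEF replicates did, with replicate 1 higher at Tgfb1 and lower at Inhba. Divided by the median promoter of its library, Inhba was at 0.0699 in replicate 1 and 1.51 in replicate 2 of pre-iPSCs, and Tgfb1 at 2.21 and 0.622. Without replicate 2 of pre-iPSCs, 4946 promoters were called in pre-iPSCs against MEFs, among them Inhba lower (−4.12) and Tgfb1 (1.47) and Tgfbr1 (1.69) higher. Without it 2087 were called in iPSCs against pre-iPSCs, with Inhba higher (3.73), and these values rest on replicate 1 of pre-iPSCs alone. For H3K4me3 the same rho was 0.542 and 0.540 in MEFs and 0.574 to 0.708 in the other cells, and with a correction for GC content Inhba was called lower at −1.72 in pre-iPSCs and −1.78 in iPSCs. For H3K27me3 rho was between −0.104 and 0.0950 in all 6 libraries, and with a correction for GC content the 3 members kept their calls in both comparisons with MEFs.

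**Figure D4:**
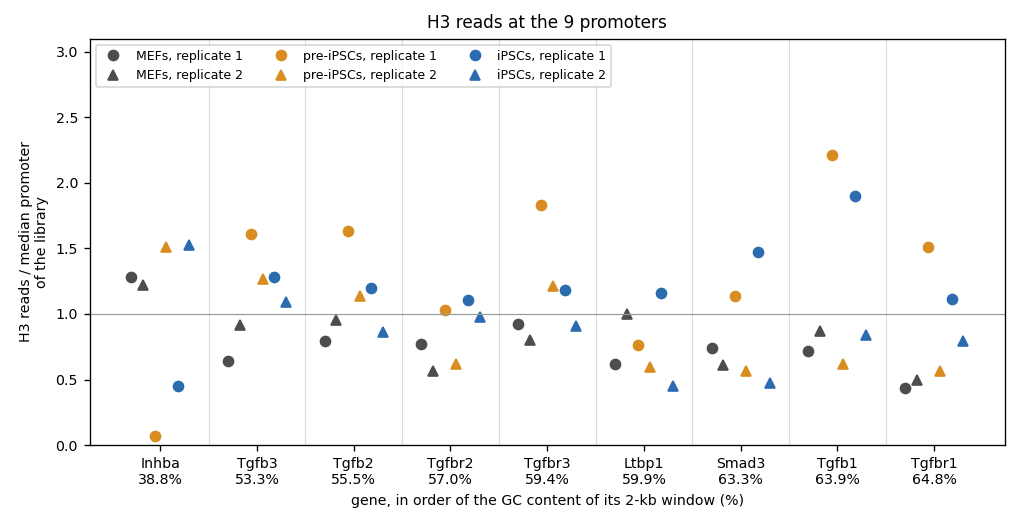
H3 reads within 1000 bp of the start site divided by those of the median promoter of the same library, for the 9 genes in order of the GC content of the window, 1 point per library. Circles of pre-iPSCs and iPSCs (replicate 1) lie below 0.5 at Inhba and above 1.9 at Tgfb1, apart from the triangles of replicate 2.

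Some members have other annotated starts. Inhba has one at −2624 bp from the start used here, where H3K4me3 was at 1.73 and 1.11 RPKM in MEFs, and at the later stages 0.828 and 0.487 (pre-iPSCs) and 1.06 and 1.09 (iPSCs), and H3K27me3 at 0.121 and 0.132, 0.394 and 0.367, and 0.518 and 0.776. H3K27me3 was thus lowest in MEFs at both starts of Inhba, and H3K4me3 in iPSCs was near the lower MEF library at the upstream start. At the start of Ltbp1 that lies 173281 bp downstream, H3K27me3 was at 0.0909 and 0.159 RPKM in MEFs, then 0.338 and 0.489 in pre-iPSCs, with 0.461 and 0.507 in iPSCs, and MEFs lay below all others there. At a start of Smad3 91447 bp downstream, H3K27me3 was at 0.0909 and 0.0794 RPKM in MEFs, while pre-iPSCs had 0.478 and 0.336 and iPSCs had 0.749 and 0.477. At a start of Smad3 46025 bp downstream and one of Tgfb2 71723 bp downstream both MEF libraries also lay below all others. At Tgfb2 this rested on 8 reads in replicate 1 of MEFs against 9 in replicate 1 of pre-iPSCs. The median H3K27me3 of all promoters, at the starts used in the fits, was lowest in MEFs too. It was 0.182 and 0.212 RPKM there and 0.214 to 0.259 RPKM in the other cells. At a start of Tgfbr1 32911 bp downstream H3K27me3 was at 0.151 and 0.0530 RPKM in MEFs, then 0.113 and 0.122 in pre-iPSCs, with 0.173 and 0.328 in iPSCs, so MEFs and pre-iPSCs overlapped. These windows were added after the data were seen and were not tested, and which start the cells used cannot be read from FPKM per gene.

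The other genes of the pathway were taken from 7 lists with 69 genes, of which 68 were in the expression tables and 62 were tested. In pre-iPSCs against MEFs 28 of the 62 were called lower, beside 9.0% of all genes, and 3 higher, beside 7.39%. From pre-iPSCs to iPSCs 1 was called lower and 1 higher, beside 4.71% and 3.91%. In iPSCs against MEFs 31 were called lower and 3 higher, beside 15.5% and 10.3%. Their median log2 difference was −1.28, −0.29 and −1.57, beside −0.04, −0.09 and −0.14 for all genes. Most calls against MEFs were lower, and the summed fibroblast markers given above were lower too. Of these markers, 3 (Col1a1, Col1a2 and Col3a1) are also among the targets. The part of fibroblasts in the levels of the pathway genes was not tested.

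Transcriptional targets had the lowest median of the lists in both comparisons with MEFs, −3.25 and −3.23. Of 20 target genes, 14 were called lower and 1 higher in pre-iPSCs against MEFs, 16 lower and 0 higher in iPSCs against MEFs, and 1 lower in iPSCs against pre-iPSCs. Acta2, the smooth muscle actin of myofibroblasts, was at 5762 and 9151 FPKM in MEFs, and at the later stages 82.6 and 61.7 (pre-iPSCs) and 35.4 and 63.2 (iPSCs). Tagln, which encodes transgelin, was at 1807 and 3183 FPKM in MEFs, then 41.5 and 32.4 in pre-iPSCs, with 19.9 and 43.9 in iPSCs (−5.99 in pre-iPSCs, limma adjusted p = 0.000938). Lox, the collagen crosslinking enzyme, had a log2 difference of −5.49 in pre-iPSCs (limma adjusted p = 0.00426). Klf10, a TGF-beta inducible repressor, was called higher, with 10.6 and 12.0 FPKM in MEFs, while pre-iPSCs had 53.7 and 25.5 and iPSCs had 29.3 and 26.6 (1.63 in pre-iPSCs, limma adjusted p = 0.0333). Bhlhe40 was called lower from pre-iPSCs (84.8 and 117 FPKM) to iPSCs (30.4 and 28.1 FPKM; −1.74, limma adjusted p = 0.0282).

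Of 8 latency and activation genes tested, 5 were called lower and 1 higher in pre-iPSCs and 7 lower and 1 higher in iPSCs, both against MEFs. Thbs1, which encodes the TGF-beta activator thrombospondin-1, was at 1658 and 607 FPKM in MEFs, and at the later stages 46.4 and 23.6 (pre-iPSCs) and 9.88 and 32.8 (iPSCs). Fbn1, the fibrillin to which LTBPs bind, and Lrrc32, which tethers latent TGF-beta to the cell surface, were among those called lower (−3.36 and −3.34 in pre-iPSCs, limma adjusted p = 0.0100 and 0.00199). Ltbp4, another latent TGF-beta binding protein gene, was called higher, with 11.4 and 3.98 FPKM in MEFs, then 39.3 and 35.6 in pre-iPSCs, with 29.8 and 17.5 in iPSCs (2.29 in pre-iPSCs, limma adjusted p = 0.00928). It was above Ltbp1 in all 4 libraries of reprogrammed cells.

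Calls among other ligands and receptors were too few to set apart from those shares of all genes. Of 4 other ligands tested, 0 were called in pre-iPSCs and 1, Bmp4, was called lower in iPSCs against MEFs (−2.19, limma adjusted p = 0.0117). Of 8 other receptors, 0 were called in pre-iPSCs, and in iPSCs against MEFs Acvr1 was called lower (−2.07, limma adjusted p = 0.00936) and Acvr2b higher (2.12, limma adjusted p = 0.00550). Acvr2b, a type II receptor for activin and Nodal, was at 0.558 and 0.670 FPKM in MEFs, while pre-iPSCs had 2.25 and 2.41 and iPSCs had 6.38 and 5.66. Tgfbr2, the type II receptor for TGF-beta, went from 20.2 ± 1.34 to 3.36 ± 1.44 FPKM (SD, n = 2). Of 6 other Smad genes, 2 were called lower in pre-iPSCs, Smad1 (−1.43, limma adjusted p = 0.0381) and the inhibitory Smad6 (−1.37, limma adjusted p = 0.0465), and Smad6 was the 1 called lower in iPSCs (−1.54, limma adjusted p = 0.0227).

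Some genes listed as inhibitors were called lower as well. Of 7 extracellular antagonists, some of which act on BMP ligands, 4 were called lower and 0 higher in each comparison with MEFs. Fst, which encodes follistatin and neutralizes activin, was at 68.4 and 128 FPKM in MEFs, then 2.499 and 2.26 in pre-iPSCs, with 1.22 and 2.49 in iPSCs (−4.81 in pre-iPSCs, limma adjusted p = 0.00106), beside −4.96 for Inhba. Bgn, the proteoglycan biglycan, and Grem1, the BMP antagonist gremlin, were called lower too (−3.92 and −2.51 in pre-iPSCs, limma adjusted p = 0.00436 and 0.0178). Of 9 intracellular inhibitors and corepressors, 3 were called lower and 1 higher in pre-iPSCs and 1 lower and 1 higher in iPSCs, both against MEFs. Pmepa1, a feedback inhibitor that sequesters SMAD proteins, and the pseudoreceptor gene Bambi were among those called lower (−3.57 and −1.28 in pre-iPSCs, limma adjusted p = 0.00159 and 0.0381). Tgif2, a SMAD corepressor, was at 5.83 and 3.90 FPKM in MEFs, then 17.5 and 16.1 in pre-iPSCs, with 18.3 and 20.3 in iPSCs (1.62 in pre-iPSCs, limma adjusted p = 0.0222). Tgif1, its relative, was at 80.4 and 76.1 FPKM in MEFs, while pre-iPSCs had 33.0 and 26.2 and iPSCs had 110.2 and 76.4, and both steps were called (−1.38 and 1.61, limma adjusted p = 0.0361 and 0.0322).

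**Figure D5:**
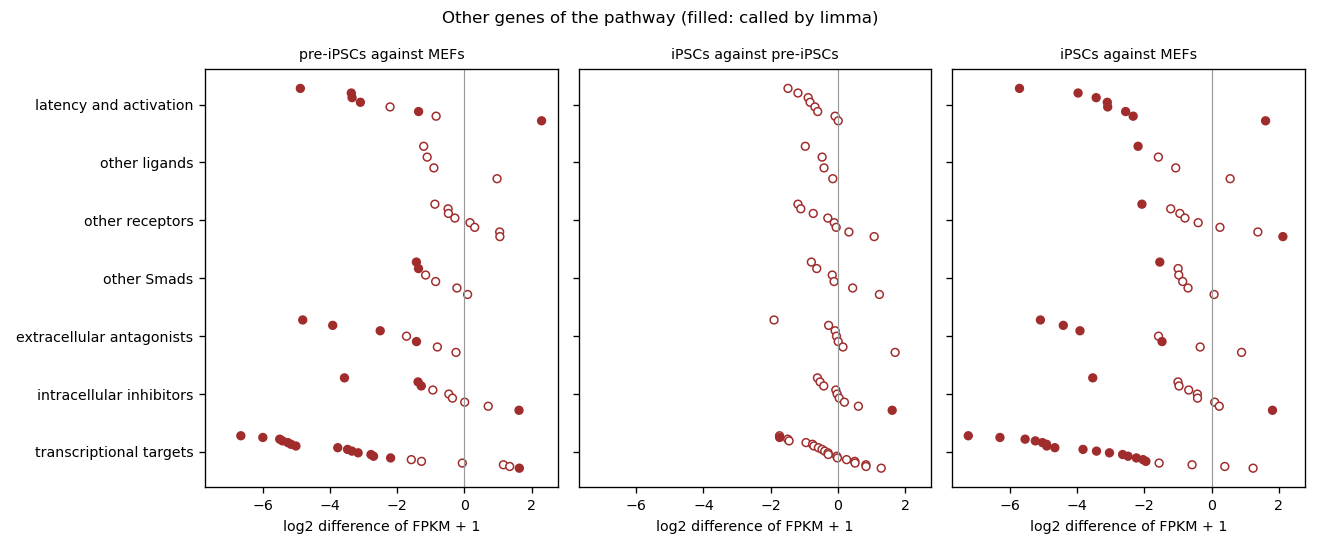
Log2 difference of FPKM + 1 for the 62 tested genes of the 7 pathway lists (rows) in the 3 comparisons (panels), 1 point per gene, filled where limma called it. Filled points lie mostly on the left in the panels against MEFs, and 2 of 62 are filled in iPSCs against pre-iPSCs.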

How the data were processed

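The members and the lists of pathway and marker genes were chosen with earlier results of these data known.

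The authors mapped MNase ChIP-seq reads (Bowtie 1.0.1, mm9), shifted them by 73 bp and ran GeneTrack, and for each nucleosome call they deposited a read count and a fuzziness score (the SD of its reads in bp, not used here). RNA-seq values are FPKM, made by the authors with TopHat2 2.0.4 and Cufflinks 2.0.2 and deposited as 2 tables, 1 per replicate number and normalized separately. Reads outside the calls were not used here.

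Libraries titled as repeats are replicate 2. The study calls them biological replicates and the sources used here do not say whether these are separate cultures or clones, so p-values measure the spread between these samples, which may be technical. A call was counted for a promoter when its dyad lay within 1000 bp of the RefSeq start, and RPKM uses the unique reads of each library. NCBIM37 is the mm9 genome.

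The limma 3.58.1 trend fit took log2(FPKM + 1) of all 6 libraries, kept genes averaging 0.5 FPKM or more and had the table as a term. The edgeR 4.0.16 quasi-likelihood fit took the counts of the 6 libraries of a mark (filterByExpr, TMM), with no block. Alternatives were DESeq2 1.42.0, other windows, filters, scalings and pseudocounts, and leaving out each library; the GC correction and the other starts were added after the data were seen. All p-values were Benjamini-Hochberg adjusted over all genes or promoters tested. With 2 libraries against 2, an exact permutation test cannot give less than 0.33, so no value was tested on its own. Both fits were tested on simulated data with planted changes. For edgeR these data were modelled on H3K4me3 counts alone, so they do not cover the low counts of H3K27me3.

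Named were all members, the called pathway genes with the largest change (up to 3 per list, direction and comparison) and the 2 genes most like each member, a few of which are not reported here. Counting intervals are exact Poisson intervals and cover counting error only. The software was R 4.3.3 and Python 3.11.15 (pandas 2.3.3, scipy 1.17.1, numpy 2.4.6).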

Additional observations from a re-analysis of the deposited data

How the results depend on the processing

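For the members, 296 of 324 alternative expression results stayed on the same side of the call, 20 lost the call and 8 gained it. For H3 374 of 378 stayed on the same side, for H3K4me3 369 of 378 and for H3K27me3 186 of 199. No called difference changed sign, while differences without a call changed sign in 11 results for expression, 36 for H3, 33 for H3K4me3 and 11 for H3K27me3, for example Tgfb1 expression in iPSCs against pre-iPSCs (−1.18 to 0.35). Of 504 counts in the pathway lists 89 moved by over 1.5 times or to or from 0, of 54 H3K9me3 levels 13 left their counting interval and of 24 counts of marked members 8 moved. The causes were not tested, except where fewer reads, genes or libraries are the alternative itself.

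In expression, without the filter on low values 2 members and 1244 genes were called in pre-iPSCs against MEFs (4 and 2032 with it). Leaving out 1 library gave 2 to 5 members and 1025 to 2869 genes in pre-iPSCs against MEFs, 0 to 4 members and 36 to 2133 genes in iPSCs against pre-iPSCs (2 and 1069 with all), and 3 to 7 members and 655 to 3691 genes in iPSCs against MEFs (7 and 3206 with all). Quantile normalization moved the median of all genes in iPSCs against MEFs from −0.14 to 0.03 and the share of higher calls from 39.9% to 48.0%.

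For H3K4me3, pre-iPSCs against MEFs had 0 members and 294 promoters called within 500 bp, 2 and 1622 within 2000 bp, 2 and 1366 with unique reads as library size, and 0 and 39 with DESeq2 (1 and 691 in the fit reported). For iPSCs against pre-iPSCs the promoters called were 0 within 500 bp, 11 within 2000 bp, 21 with unique reads, 0 with DESeq2, 20 without a filter, 0 with calls of at least 2 reads and 0 with the GC correction (5 in the fit reported). For iPSCs against MEFs they were 912 within 500 bp, 4298 within 2000 bp (2 members) and 142 with DESeq2 (0 members), against 2450.

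For H3K27me3, pre-iPSCs against MEFs had 0 members and 93 promoters called within 500 bp, 1753 promoters within 2000 bp, and 0 and 44 with DESeq2 (3 and 842 in the fit reported). For iPSCs against pre-iPSCs the promoters called were 2 within 500 bp, 218 within 2000 bp (1 member), 0 with DESeq2, 48 without a filter and 34 with calls of at least 2 reads, against 82. For iPSCs against MEFs they were 145 within 500 bp (0 members), 2896 within 2000 bp (7 members), 27 with DESeq2 (0 members) and 656 with calls of at least 2 reads, against 1163, and without a filter 5 members were called.

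Leaving out 1 library of a mark gave, for H3K4me3, 0 to 1 member and 98 to 898 promoters in pre-iPSCs against MEFs, 0 to 73 promoters in iPSCs against pre-iPSCs, and 0 to 1 member and 603 to 2329 promoters in iPSCs against MEFs. For H3K27me3 it gave 1 to 3 members and 396 to 864 promoters, 0 members and 9 to 128 promoters, and 3 to 4 members and 465 to 1180 promoters in the same order. For H3 it gave 0 to 3 members and 0 to 4946 promoters, 0 to 1 member and 0 to 2087 promoters, and 0 of both. In these fits the remaining sample of a group is assumed to vary like those of the other groups. With unique reads as library size, the median of H3 over all promoters moved from 0.06 to 0.92 in pre-iPSCs against MEFs and from 0.05 to 0.60 in iPSCs against MEFs, and no member was called. With DESeq2, 77.3% of the H3K27me3 calls in pre-iPSCs against MEFs were higher (60.6% with edgeR), as were 100% of the H3K4me3 calls in pre-iPSCs and 95.8% of those in iPSCs (80.6% and 71.4% with edgeR).

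The labels do not say that equal replicate numbers mark a shared batch. The deviations of same-numbered libraries correlated between pre-iPSCs and iPSCs at 0.794 for H3, 0.113 for H3K4me3 and 0.0572 for H3K27me3, and at −0.205 to 0.346 over the pairs of RNA-seq libraries. Between MEFs and the other cells they were at −0.0306 and 0.00758 for H3, −0.0459 and 0.00364 for H3K4me3 and −0.0137 and −0.0431 for H3K27me3. Not every pair was above 0.1 for any of these data, so the numbers were not taken as pairs. In expression the term for the separately normalized table coincides with the replicate number, so that fit does hold a block. With a replicate block in the fits of the marks, 10 promoters were called for H3K4me3 and 39 for H3K27me3 in iPSCs against pre-iPSCs, and no call of a member changed. Without the table as a term, 1997, 1124 and 3004 genes were called in expression, and the same number of members as with it.

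Counting limits the H3K27me3 and H3K9me3 values, since members had at most 35 and 20 reads. Marked promoters were defined by a level, not by peaks, and no input library was used.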
